A study of Mus musculus with 120 samples.

Results

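Candidate genes of diabetes susceptibility loci were followed in scaffold biopsies of NOD and NOR mice. The candidates were Slc11a1, Tnfrsf9, Tnfrsf8, Tnfrsf1b, Mtor, B2m, Ptpn22, Cd101, Sirpa and Tnfaip3, picked by gene name, and they are 10 of the 55487 genes that both count tables list. In the NOD mouse, autoimmune diabetes depends on many chromosomal regions, called Idd loci, of which the H2g7 haplotype of the major histocompatibility complex is the strongest. The NOR mouse carries the same H2g7 haplotype and a genome mostly of NOD origin, but has segments from the C57BLKS/J strain on several chromosomes and stays free of diabetes. A gene inside such a segment can differ in sequence between the strains, and a candidate is a gene of an Idd interval with a role in immune cells, which is not the same as a proven cause.

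The biopsies came from a porous polycaprolactone scaffold placed under the skin of the back, which fills with host cells and is called an immunological niche (IN). Groups were NOR/LtJ mice (23 samples of 5 mice, every 4 weeks from 6 to 22 weeks of age), NOD/ShiLtJ nonprogressors, which kept normal glucose (39 samples), and NOD/ShiLtJ progressors, which became hyperglycemic (58 samples of 10 mice). Every group carried the scaffold and had anesthesia and analgesic for its surgery. The nonprogressors gave 11 samples at 6 weeks, 4 at 10, 10 at 14, 4 at 18 and 4 at 22 weeks. Another 6 samples were labelled by 31, 38 or 108 days after implantation. Their titles carry mouse numbers, which were not linked here to those of other samples, and they stay out of the main comparisons. The progressors gave 10 samples at 6 weeks of age, 8 at 7 weeks before hyperglycemia (-7), and 10 at each of -5, -3 and -1 weeks and at onset. All NOR samples were sequenced in batch 1, with nonprogressor mice 1 to 4 and progressor mice 1 to 5, and all -7 samples were in batch 2. Leaving aside the day-labelled samples, all mice except nonprogressor mouse 11 gave repeated biopsies, and strains were compared on counts summed per mouse.

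Total counts ran from 4722396 to 56185434 per sample over the 120 samples, and the values below are CPM, that is counts relative to the library size, after TMM scaling. The 18-week sample of NOR mouse 5 had 85.7% of its counts on a single gene, CT010467.1, which left 1233373 counts on the others, and in no other sample did 1 gene take more than 30.5%. That sample is kept in the values below, and some of those that rest on it are also given without it. With the batch 1 biopsies summed per mouse, the CPM of 8 macrophage markers added up to 5250 to 6040 in NOR and 4370 to 6240 in NOD mice, and that of 5 fibroblast markers 19500 to 21800 and 16900 to 26600, with no marker of either list at 0. In bulk tissue of this kind, fewer cells of a type and less RNA per cell cannot be told apart.

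The candidates fall into several roles. Slc11a1 (chr1:74375195-74386062, GRCm38, plus strand) encodes a metal ion transporter of the phagosome membrane of macrophages and is a candidate of Idd5. On chromosome 4, in the Idd9 region, lie Tnfrsf1b (chr4:145213463-145246870, minus strand), which encodes TNF receptor 2, and its neighbour Tnfrsf8 (chr4:145267137-145315164, minus strand), which encodes the lymphocyte activation receptor CD30. Mtor (chr4:148448611-148557683, plus strand), the kinase that couples nutrients to growth, and Tnfrsf9 (chr4:150914562-150946102, plus strand), the costimulatory receptor 4-1BB, lie farther along. On chromosome 2, in the Idd13 region, are B2m (chr2:122147686-122153083, plus strand), the light chain of MHC class I, and Sirpa (chr2:129592835-129632228, plus strand), the inhibitory receptor of myeloid cells for CD47. On chromosome 3 are Cd101 (chr3:100993529-101029556, minus strand), an immunoglobulin superfamily receptor of myeloid and T cells, and Ptpn22 (chr3:103859795-103912247, plus strand), a phosphatase that restrains antigen receptor signalling. Tnfaip3 (chr10:19000910-19015657, minus strand) encodes A20, which limits NF-κB signalling.

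Levels between genes were compared as CPM per kilobase of exon. B2m was the most abundant candidate at 907 ± 194 CPM per kb (SD, n = 120 samples), followed by Sirpa at 196 ± 49.6. Slc11a1 followed at 72.2 ± 18.8 and Tnfrsf1b at 59.4 ± 16.8, then Tnfaip3 at 11.0 ± 2.46 and Mtor at 9.33 ± 0.936 CPM per kb. The mean of Slc11a1 lay within the spread of Tnfrsf1b and the reverse, and that of Mtor within the spread of Tnfaip3, whereas that of Tnfaip3 lay above the narrower spread of Mtor. Ptpn22 at 1.53 ± 0.601 and Tnfrsf9 at 1.06 ± 0.816 overlapped too, while Tnfrsf8 at 0.243 ± 0.11 and Cd101 at 0.235 ± 0.209 CPM per kb were the lowest and did not differ beyond their spread. Tnfrsf8 and Cd101 are thus counted from few reads, and both were listed at 0 in the low 18-week NOR sample. All 10 candidates passed the filter on low counts in every comparison. Of their 50-base stretches in the GENCODE M21 transcripts, 0.66% for Slc11a1, 0.26% for Ptpn22 and none for the other 8 also occur in a transcript of another gene.

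Whether the candidates differ between the strains was asked in batch 1, where both were sequenced. Of the candidates, 5 of 10 were lower in NOD and none was higher by the quasi-likelihood test of edgeR over 23387 genes, at a Benjamini-Hochberg adjusted p below 0.05. Of all genes tested, 5.11% were lower, 3.87% were higher and 8.98% differed in either direction. The median log2 fold change, NOD minus NOR, was -0.27 over the candidates and -0.002 over all genes. The 5 were Tnfrsf8, Tnfrsf1b, Sirpa, B2m and Cd101. Reads of both strains were aligned to 1 reference, and the effect of sequence differences between the strains on these counts was not tested.

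Tnfrsf1b, the receptor for TNF that T cells and myeloid cells carry, had 276.1, 292.2, 322.2, 330.9 and 290 CPM in the 5 NOR mice and from 161.7 to 229.8 CPM (median 201) in the 9 NOD mice. Every NOD mouse was below every NOR mouse, and the log2 fold change was -0.60 ± 0.09 (SE), a level 0.66 times that of NOR (edgeR adjusted p = 0.000425). Tnfrsf8 had 1.063, 1.149, 0.9331, 1.192 and 0.9809 CPM in NOR and from 0.6024 to 0.84 CPM (median 0.6369) in NOD, again without overlap, at summed counts of 75 to 204 per mouse. Its log2 fold change was -0.63 ± 0.098 (edgeR adjusted p = 0.000644), and with the 6-week samples alone it was -0.91 ± 0.226 and did not pass (edgeR adjusted p = 0.0567). The starts of Tnfrsf8 and Tnfrsf1b lie close together, and both were lower by a similar ratio.

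Sirpa had 1232, 1268, 1382, 1305 and 1255 CPM in the NOR mice and from 752.6 to 988 CPM (median 912.1) in the NOD mice. The groups did not overlap, and NOD stood at 0.688 times the NOR level (log2 fold change -0.54 ± 0.073, edgeR adjusted p = 0.000142). B2m, the other Idd13 candidate, had 800.4, 890.3, 802, 855.7 and 759.5 CPM in NOR and from 578.6 to 744 CPM (median 663) in NOD. Here too all 9 NOD mice were below the lowest NOR mouse, with a smaller log2 fold change of -0.30 ± 0.064 (edgeR adjusted p = 0.00858), which was -0.425 ± 0.154 and did not pass with the 6-week samples alone (edgeR adjusted p = 0.221). Of all genes tested, the mice of the strains did not overlap for 4.95%.

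Cd101 had 0.8302, 0.6245, 0.9902, 1.659 and 0.964 CPM in NOR and from 0.4975 to 0.7253 CPM (median 0.5373) in NOD. The lowest NOR mouse, mouse 2, lay within the NOD range, and mouse 4 was far above the other NOR mice. The log2 fold change was -0.83 ± 0.179 (edgeR adjusted p = 0.0089) with mouse 4, and without that mouse it was -0.57 ± 0.135 (edgeR adjusted p = 0.0204). In NOR mouse 4 a single 18-week sample held 197 of the 284 summed counts of Cd101, at 6.954 CPM, while its 3 companions of that age had 1.042, 0.3151 and 0 CPM. With the 6-week samples alone, the log2 fold change of Cd101 was 0.04 ± 0.473 (edgeR adjusted p = 0.986). With each biopsy entered separately and age as a factor, nonprogressors against NOR gave -0.76 ± 0.287, which did not pass (edgeR adjusted p = 0.0965).

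The other 5 candidates did not pass the test between strains. Slc11a1 had 236.8 to 253.8 CPM in NOR and 209.3 to 338.3 CPM in NOD (log2 fold change 0.095 ± 0.089, edgeR adjusted p = 0.582). Tnfrsf9 had 1.997 to 4.609 CPM in NOR and 1.457 to 3.67 CPM in NOD (-0.25 ± 0.222, edgeR adjusted p = 0.557). Mtor varied least, with 88.12 to 93.39 CPM in NOR and 88.72 to 101.2 CPM in NOD (0.057 ± 0.034, edgeR adjusted p = 0.35). The ranges of the strains overlapped for all 5 genes. With each biopsy entered separately and the mouse as a block (limma voom), Mtor was called as well, higher in NOD by 0.08 ± 0.028 (adjusted p = 0.0486). Ptpn22 lay at 7.712 to 10.64 and 6.736 to 12.89 CPM (-0.015 ± 0.14, edgeR adjusted p = 0.969), and Tnfaip3 at 73.17 to 102.5 and 64.46 to 84.1 CPM (-0.16 ± 0.074, edgeR adjusted p = 0.208).

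**Figure D1:**
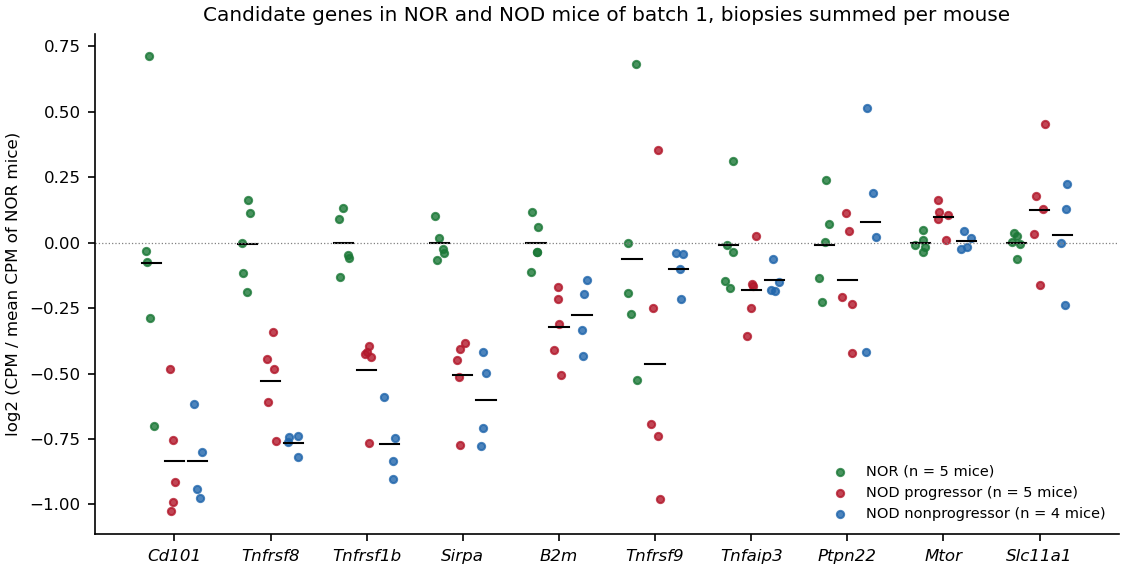
Candidate genes in the mice of batch 1, as log2 of CPM over the mean CPM of the 5 NOR mice (y axis), with 1 point per mouse, bars at group means and genes along the x axis. For Tnfrsf8, Tnfrsf1b, Sirpa and B2m every progressor and nonprogressor mouse lies below every NOR mouse, and for Cd101 the lowest NOR mouse lies within the NOD range.

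The 5 genes were lower in both NOD groups, though B2m missed the threshold in nonprogressors. In a model with 3 groups of mice, progressors (5 mice) stood below NOR by log2 fold changes of -0.52 for Tnfrsf8, -0.48 for Tnfrsf1b, -0.50 for Sirpa, -0.32 for B2m and -0.82 for Cd101, all past the test, against 5.64% of all genes. Nonprogressors (4 mice) stood below NOR by -0.77, -0.76, -0.59, -0.27 and -0.83 in the same order, and all but B2m (edgeR adjusted p = 0.0558) passed, against 7.17% of all genes. Progressor and nonprogressor mice of this batch did not differ in any candidate. The progressor minus nonprogressor difference was 0.28 ± 0.085 for Tnfrsf1b (edgeR adjusted p = 0.584) and 0.25 ± 0.107 for Tnfrsf8 (edgeR adjusted p = 0.728).

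Genes around the candidates were examined in the same comparison, since the strains differ in blocks of the genome. Within 1 Mb of the start of Tnfrsf8, 13 of 19 other tested genes differed between the strains (68.4%), and 11 of 17 did so around Tnfrsf1b, a window that mostly repeats the first. Around Mtor 29 of 47 differed (61.7%), around B2m 21 of 39 (53.8%), around Sirpa 17 of 44 (38.6%), around Tnfrsf9 5 of 17 (29.4%) and around Slc11a1 12 of 48 (25%). The share was 17.3% over all of chromosome 4, 15.5% over chromosome 2 and 11.8% over chromosome 1. Around Ptpn22 0 of 53, around Cd101 0 of 25 and around Tnfaip3 0 of 17 genes differed, where chromosomes 3 and 10 had 3.81% and 6.44%. Cd101 was therefore the 1 gene called in its own window, while Mtor, Tnfrsf9 and Slc11a1 did not pass the test amid neighbours that did. The neighbours differed in both directions, with 5 of 13 higher in NOD around Tnfrsf8 and 12 of 29 around Mtor.

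Several neighbours differed far more than the candidates. Near Tnfrsf8, the zinc finger gene Zfp990 had a log2 fold change of 8.04 ± 0.353 and the pseudogene Znf41-ps one of -2.93 ± 0.103, 195.6 and 510.1 kb from the start of Tnfrsf8. Near Mtor, Zfp979 stood at 4.13 ± 0.127, Zfp982 at -5.07 ± 0.17 and Zfp984 at -2.51 ± 0.107. These zinc finger genes and pseudogenes belong to a multigene family with near-identical copies, among which the counting could split reads, so their values are uncertain. Near B2m, Eif3j1, a subunit of a translation initiation factor, stood at -1.23 ± 0.034 at 119.1 kb, and Slc28a2b, a nucleoside transporter, at 4.26 ± 0.133. Near Sirpa, Polr1b, a subunit of RNA polymerase I, stood at -0.70 ± 0.036. Near Slc11a1, the chemokine receptor gene Cxcr1 stood at -2.49 ± 0.249 at 180.6 kb, and near Tnfrsf9, H6pd stood at -0.31 ± 0.041. All of these passed the edgeR test at adjusted p = 0.00013 or below.

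**Figure D2:**
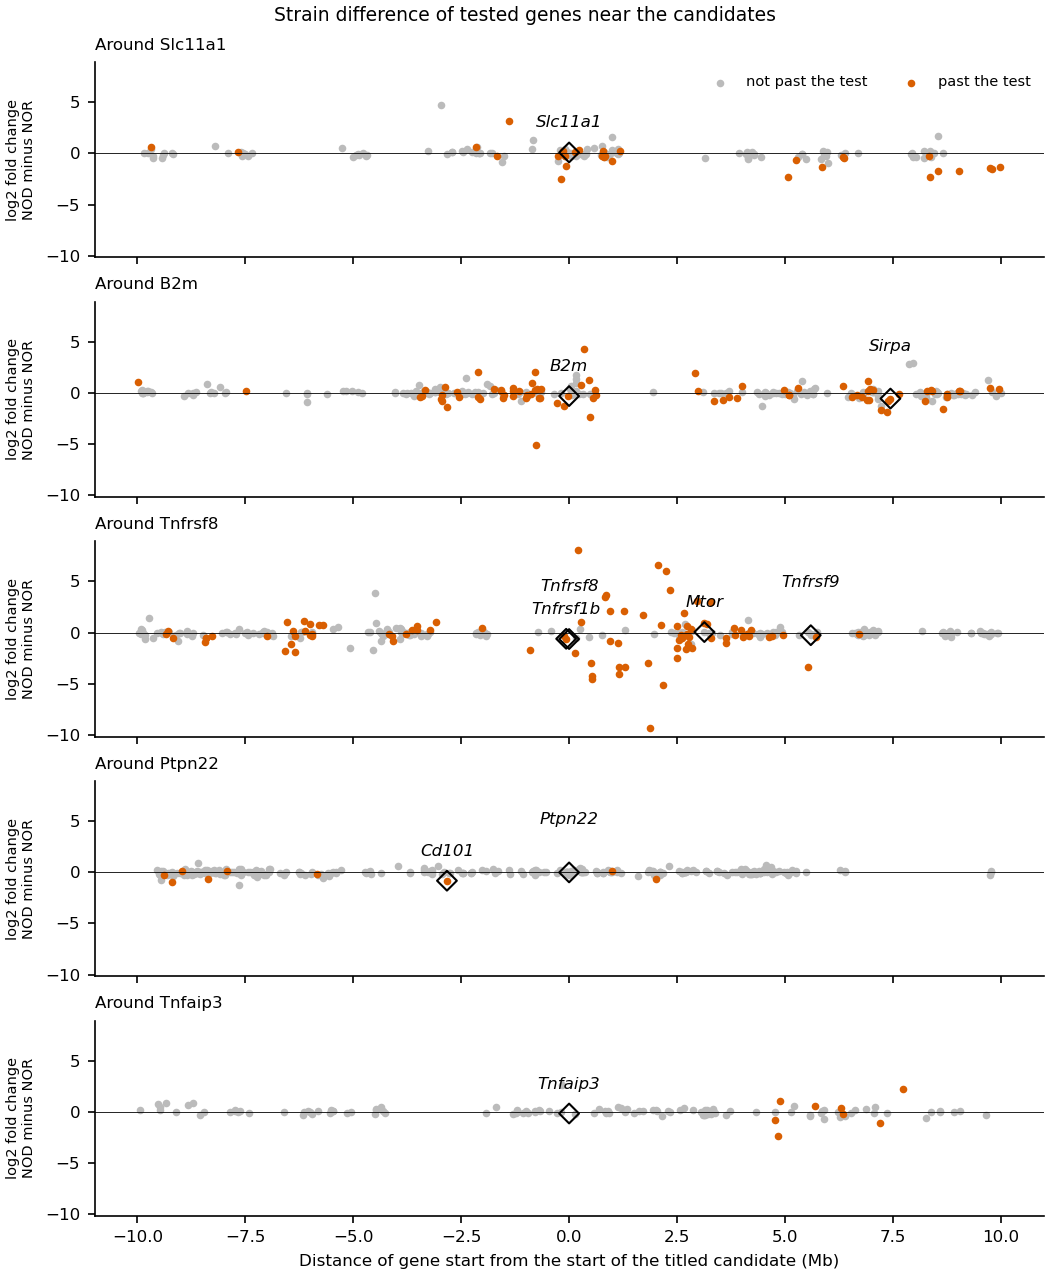
Log2 fold change between NOD and NOR mice (y axis) of all tested genes against the distance of their start from that of the candidate named on each panel (x axis, Mb), with genes past the test in orange and candidates as diamonds. Differing genes crowd around B2m, Sirpa, Tnfrsf8, Tnfrsf1b and Mtor and are absent within 1 Mb of Ptpn22, Cd101 and Tnfaip3, apart from Cd101 itself.

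Genes of the candidates' pathways were counted in the same strain comparison, where 3.87% of all genes were higher in NOD, 5.11% lower and 8.98% either. Of 22 genes of TNF receptor signalling, 3 were lower in NOD and none higher, namely Tnip1 (-0.50 ± 0.065), a partner of A20, Traf2 (-0.19 ± 0.029), an adaptor of TNF receptor 2 and CD30, and Ikbkb (-0.12 ± 0.032), a kinase upstream of NF-κB. The median over that list was -0.064 against -0.002 over all genes. Of 12 genes of MHC class I assembly, Canx alone differed (0.12 ± 0.034), and neither H2-K1 nor Tap1 passed. None of 14 genes of the mTOR complexes and of 7 of the SIRPA and CD47 axis passed the test. Of 12 genes of lymphocyte receptor signalling, Lat, an adaptor of the T cell receptor, was higher in NOD (0.92 ± 0.099). Of 9 genes of phagosomes and metal transport, the iron exporter Slc40a1 was lower (-1.16 ± 0.291). Among 15 further candidate genes of NOD loci, of which 13 passed the filter, Mertk (-0.36 ± 0.08), a receptor for the clearance of dying cells, and the costimulatory receptor gene Cd28 (-0.52 ± 0.141) were lower.

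Cell type markers that moved with the strain were few. Of 8 macrophage markers, Csf1r (-0.26 ± 0.056), C1qa (-0.50 ± 0.103) and C1qb (-0.88 ± 0.102) were lower in NOD, of 8 T cell markers Cd4 was lower (-1.14 ± 0.276), and of 6 dendritic cell markers Itgax was lower (-0.53 ± 0.107). The summed level of the dendritic cell markers was 1030 to 1240 CPM in NOR and 622 to 946 CPM in NOD mice, without overlap. Of all single genes tested, 4.95% had no overlap. Cd209a (-0.63 ± 0.19), Clec9a (-0.23 ± 0.103), Flt3 (-0.21 ± 0.127), Xcr1 (-0.05 ± 0.193) and Zbtb46 (-0.05 ± 0.055) did not pass. How much of the sum each marker made up was not examined. That of the T cell markers was 18.3 to 27.7 CPM in NOR and 10.2 to 22.3 CPM in NOD. No marker of these lists was at 0 in either strain, and their part in the lower Tnfrsf1b, Sirpa, Tnfrsf8, B2m and Cd101 was not tested. Markers of B cells, neutrophils, fibroblasts, endothelium, adipocytes, epidermis and skeletal muscle did not pass the test between strains.

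The strain difference was next followed over age, with NOR and nonprogressor samples of batch 1 at matched ages. Tnfrsf1b was lower in nonprogressors at each of the 5 ages, where 1.5%, 1.87%, 2.07%, 2.6% and 7.19% of all genes differed, by log2 fold changes of -1.09 ± 0.152 at 6 weeks, -0.67 ± 0.144 at 10, -0.57 ± 0.144 at 14, -0.72 ± 0.152 at 18 and -0.67 ± 0.145 at 22 weeks (edgeR adjusted p from 5.81e-06 to 0.021). At 6 weeks Tnfrsf1b averaged 300.7 ± 72.1 CPM in NOR (SD, n = 4), and the nonprogressors of both batches averaged 144.4 ± 26.67 CPM (SD, n = 11). Sirpa was lower at 6 weeks (-0.68 ± 0.175), 10 weeks (-0.63 ± 0.167) and 14 weeks (-0.70 ± 0.167), with edgeR adjusted p from 0.0129 to 0.0368, and did not pass at 18 weeks (-0.37 ± 0.174) and 22 weeks (-0.28 ± 0.166). Without the low 18-week NOR sample (2.29% of all genes called at 18 weeks and 10.9% at 22), the value of Sirpa at 18 weeks was -0.54 ± 0.163 (edgeR adjusted p = 0.0764), and that of Tnfrsf1b was -0.86 ± 0.142. Tnfrsf8 was -1.05 ± 0.347 at 22 weeks (edgeR adjusted p = 0.0592), and 0.0328 without that sample. Tnfaip3 passed at 18 weeks only without that sample, lower in nonprogressors by -0.84 ± 0.185 on the log2 scale (edgeR adjusted p = 0.00599, against -0.63 ± 0.212 and 0.113 with it). B2m and Cd101 passed the test at no single age.

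An interaction of strain and age, which asks whether the strain difference itself changes, was past the test for none of the 10 candidates and for 1.43% of all genes. Tnfrsf9 came closest (edgeR adjusted p = 0.0547). Its difference was -1.25 ± 0.458 at 6 weeks, 0.05 ± 0.413 at 10, 1.39 ± 0.418 at 14, -1.11 ± 0.466 at 18 and -0.24 ± 0.422 at 22 weeks, so that it changed sign between ages. Without the low 18-week NOR sample, the difference at 18 weeks was -0.95 ± 0.474. Levels in NOR ran from 0.9824 to 10.1 CPM, the highest of which rests on 10 counts in that low sample. Tnfrsf9 passed with DESeq2 (adjusted p = 0.0048) and, with edgeR, without NOR mouse 2 (adjusted p = 0.0396).

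**Figure D3:**
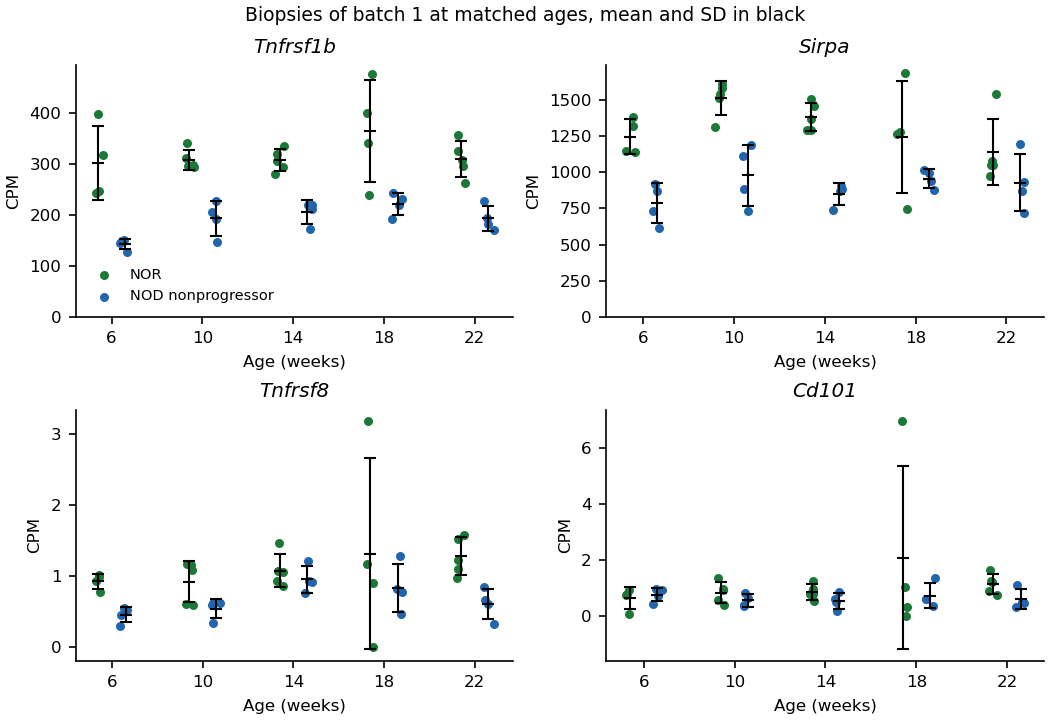
CPM (y axes) of Tnfrsf1b, Sirpa, Tnfrsf8 and Cd101 in NOR and NOD nonprogressor biopsies of batch 1 by age in weeks (x axes), with 1 point per biopsy and black bars for mean and SD. Tnfrsf1b of nonprogressors lies below all NOR biopsies of the same age, except at 18 weeks, and the low 18-week NOR points of Sirpa and Tnfrsf1b are the sample of mouse 5 with few usable counts.

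Progressors and nonprogressors were then compared within NOD. At 6 weeks of age (10 against 11 mice, batch as a term), none of the 10 candidates and none of 20090 genes passed edgeR's test. The unadjusted p was under 0.05 for 999 genes and for no candidate, and DESeq2 called 0 genes as well, with 1115 under 0.05. Log2 fold changes of the candidates lay between -0.19 ± 0.215 for Tnfrsf8 and 0.14 ± 0.107 for Tnfrsf1b. Tnfrsf1b averaged 161.9 ± 28.46 CPM (SD, n = 10) in progressors at that age, against 144.4 CPM in nonprogressors.

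After 6 weeks, with the biopsies summed per mouse, none of 10 candidates and of 23833 genes passed edgeR's test, with 2238 genes under an unadjusted p of 0.05. RLE scaling gave 3 genes and DESeq2 131, none of them a candidate. Tnfrsf1b, higher in progressors by 0.19 ± 0.067, was the 1 candidate with an unadjusted p under 0.05 (0.0106, edgeR adjusted p = 0.449). Tnfrsf8 had a difference of 0.20 ± 0.102 (edgeR adjusted p = 0.549). In this comparison the ages of the groups are not matched.

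Over time, the TNF receptor genes had the largest changes among the candidates of progressors. In progressors, 5 of 10 candidates were higher at -5, -3, -1 weeks and onset than at 6 weeks of age and none was lower (edgeR, batch as a term, 58 samples). Of all 21279 genes tested, 19.6% were higher, 19.9% lower and 39.5% changed in either direction. The candidates had a median log2 fold change of 0.23, against 0.01 over all genes. In nonprogressors, 3 of 10 were higher at 10 to 22 weeks than at 6 weeks and none was lower, against 9.88% higher, 14.2% lower and 24.1% in either direction among 21138 genes. In NOR none of 10 passed, with 0.0357% of 19628 genes called, 1341 genes under an unadjusted p of 0.05 and 47 called by DESeq2, no candidate among them.

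Tnfrsf9, which activated T cells induce, averaged 1.268 ± 0.4544 CPM (SD, n = 10) in progressors at 6 weeks, 1.465 ± 0.8278 at -7 (n = 8), 3.304 ± 1.71 at -5, 2.505 ± 0.983 at -3, 2.994 ± 2.504 at -1 and 4.55 ± 3.592 at onset (n = 10 each). The samples ran from 0.8209 to 1.956 CPM at 6 weeks and from 2.154 to 13.29 CPM at onset. How many of all genes separate these 2 times in the same way was not counted. Its log2 fold change over the later times was 1.33 ± 0.285, or 2.51-fold (edgeR adjusted p = 0.000183), and the later mean was higher in 9 of 10 mice. At -7 it was -0.10 ± 0.369 and at onset 1.745 ± 0.336 (edgeR adjusted p = 4.66e-05). Of all genes, 12.5% differed from 6 weeks at -7, 25% at -5, 24.7% at -3, 26.3% at -1 and 39.6% at onset. In nonprogressors the change was 1.08 ± 0.422 (edgeR adjusted p = 0.0611; 1.56 ± 0.286 and 0.00323 in batch 1 alone) and in NOR 0.30 ± 0.407 (edgeR adjusted p = 0.947).

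Tnfrsf8 averaged 0.4881 ± 0.1553 CPM at 6 weeks, 0.6161 ± 0.2846 at -7, 0.784 ± 0.213 at -5, 0.8352 ± 0.1978 at -3, 1.037 ± 0.2758 at -1 and 0.9655 ± 0.2712 at onset. The later mean was above the 6-week sample in 10 of 10 progressors, with a log2 fold change of 0.87 ± 0.176 (edgeR adjusted p = 8.25e-05). The later mean was also higher in 10 of 10 nonprogressors with both times, at ratios from 1.03 to 2.6. There the log2 fold change of 0.35 ± 0.205 did not pass (edgeR adjusted p = 0.225). In NOR the change of Tnfrsf8 was 0.37 ± 0.299 (edgeR adjusted p = 0.886). For nonprogressor mice 5 to 10, the later mean of every candidate is 1 biopsy, against 4 in each progressor.

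Tnfrsf1b averaged 161.9 ± 28.46 CPM at 6 weeks, 184.1 ± 30.13 at -7, 212.9 ± 34.53 at -5, 227.8 ± 23.52 at -3, 234.7 ± 32.78 at -1 and 263.6 ± 42.3 at onset. It rose in 10 of 10 progressors, by 0.53 ± 0.076 (edgeR adjusted p = 2.4e-07), and in 10 of 10 nonprogressors, by 0.47 ± 0.094 (edgeR adjusted p = 0.00068). In NOR it had 300.7 ± 72.1 CPM at 6 weeks and 308.7 ± 34.7 at 22 weeks, and its change was 0.09 ± 0.128 (edgeR adjusted p = 0.947). The onset mean of progressors was thus still below the NOR mean at 6 weeks, a comparison across batches that was not tested.

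Sirpa rose from 755 ± 167.8 CPM at 6 weeks to 953.4 ± 151.4 at -5 and 971.5 ± 122.4 at onset in progressors (log2 fold change over the later times 0.31 ± 0.074, edgeR adjusted p = 0.000762, higher in 9 of 10 mice). In nonprogressors it rose by 0.29 ± 0.097 (edgeR adjusted p = 0.0293, higher in 8 of 10 mice), and in NOR its change was 0.075 ± 0.135. Tnfaip3 rose in progressors from 68.19 ± 9.906 CPM at 6 weeks to 87.84 ± 19.41 at onset (0.26 ± 0.087 over the later times, edgeR adjusted p = 0.014), and had changes of 0.16 ± 0.094 in nonprogressors and 0.32 ± 0.191 in NOR that did not pass. Mtor was the third gene to rise in nonprogressors, by 0.11 ± 0.037 (edgeR adjusted p = 0.0326). It averaged 83.33 ± 6.309 CPM at 6 weeks (SD, n = 11, both batches) and 96.31 ± 3.988 at 22 weeks (SD, n = 4, all batch 1). These 2 means thus differ in batch as well as in age. In nonprogressors of batch 1 alone, neither Sirpa (0.24 ± 0.133, edgeR adjusted p = 0.24) nor Mtor (0.13 ± 0.054, edgeR adjusted p = 0.107) passed. Without nonprogressor mouse 1, 3 or 4, the calls of Sirpa and Mtor ended, with edgeR adjusted p of 0.139, 0.0515 and 0.0708 for Sirpa and 0.115, 0.06 and 0.0736 for Mtor, and that of Tnfrsf1b did not.

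Slc11a1 followed another course. In progressors it averaged 239 ± 55.77 CPM at 6 weeks, 328.6 ± 88.47 at -7, 310.6 ± 72.66 at -5, 300.7 ± 65.2 at -3, 243.2 ± 52.36 at -1 and 247.4 ± 49.5 at onset. Its log2 fold change against 6 weeks was 0.54 ± 0.154 at -7 (edgeR adjusted p = 0.0135), 0.38 ± 0.139 at -5 (0.0389), 0.34 ± 0.139 at -3 (0.0646), 0.02 ± 0.139 at -1 and 0.05 ± 0.139 at onset. The test over all 6 times passed for Slc11a1 (edgeR adjusted p = 0.00562), as it did for Tnfrsf9, Tnfrsf8, Tnfrsf1b and Sirpa, against 35.6% of all genes. When each mouse was entered as a block next to batch, Slc11a1 alone of these 5 no longer passed (edgeR adjusted p = 0.0611). All -7 samples belong to batch 2, and within that batch Slc11a1 stood 0.63 ± 0.164 above 6 weeks at -7 (edgeR adjusted p = 0.00724, 8 against 5 samples, with 19.1% of all genes called). The -7 samples include progressor mice 1 to 4, whose 6-week biopsies were in batch 1. This contrast is therefore partly between different mice. The later times of batch 2 lay 0.29 ± 0.178 above 6 weeks at -5, 0.45 ± 0.178 at -3, 0.14 ± 0.178 at -1 and 0.32 ± 0.178 at onset, none past the test. The test over all times also passed for Slc11a1 in batch 2 alone (edgeR adjusted p = 0.0324) but not in batch 1 alone (0.0798), which has no -7 samples. In NOR, Slc11a1 averaged 239.2 ± 24.86 CPM at 6 weeks, 322.7 ± 36.86 at 10, 284.6 ± 45.79 at 14, 208.1 ± 62.33 at 18 (with the low sample, at 130.3) and 177.7 ± 34.39 at 22 weeks. Among the sampled ages, the mean at 10 weeks was the highest in nonprogressors as well, at 345.4 ± 95.34 CPM (SD, n = 4).

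B2m, Ptpn22 and Cd101 passed no test over time in the pooled models. B2m averaged 795.1 ± 202.1 CPM at 6 weeks and 726.6 ± 260 at onset in progressors, with the widest spread at onset, from 315.5 to 1101 CPM, and in batch 1 alone B2m passed the test over all times (edgeR adjusted p = 0.0336). Cd101 averaged 0.5594 ± 0.2312 and 0.5044 ± 0.2324 CPM at the same times. Ptpn22 had a log2 fold change of -0.11 ± 0.153 over both batches, which came apart between them, at -0.50 ± 0.174 in batch 1 (edgeR adjusted p = 0.0351) and 0.36 ± 0.226 in batch 2 (edgeR adjusted p = 0.223). In nonprogressors of batch 1 Ptpn22 fell by 0.94 on the log2 scale (SE 0.266, edgeR adjusted p = 0.0279).

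Within each batch alone, the changes of progressors were 1.13 ± 0.342 and 1.495 ± 0.42 for Tnfrsf9, 0.69 ± 0.204 and 1.04 ± 0.277 for Tnfrsf8 and 0.49 ± 0.116 and 0.57 ± 0.082 for Tnfrsf1b, batch 1 first, all past edgeR's test. Sirpa had 0.15 ± 0.096 in batch 1 (edgeR adjusted p = 0.261) and 0.48 ± 0.094 in batch 2 (edgeR adjusted p = 0.000238). Tnfaip3 had 0.20 ± 0.104 in batch 1 (edgeR adjusted p = 0.163) and 0.33 ± 0.127 in batch 2 (edgeR adjusted p = 0.0459). The batch 1 values of Sirpa and Tnfaip3 thus did not pass. Mtor had -0.047 ± 0.072 in batch 1 and 0.24 ± 0.052 in batch 2 (edgeR adjusted p = 0.000766). Mtor was also the 1 candidate whose level differed between batches in nonprogressors at 6 and 14 weeks (batch 2 minus batch 1, -0.15 ± 0.041, edgeR adjusted p = 0.00504), where 48.6% of all genes differed.

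**Figure D4:**
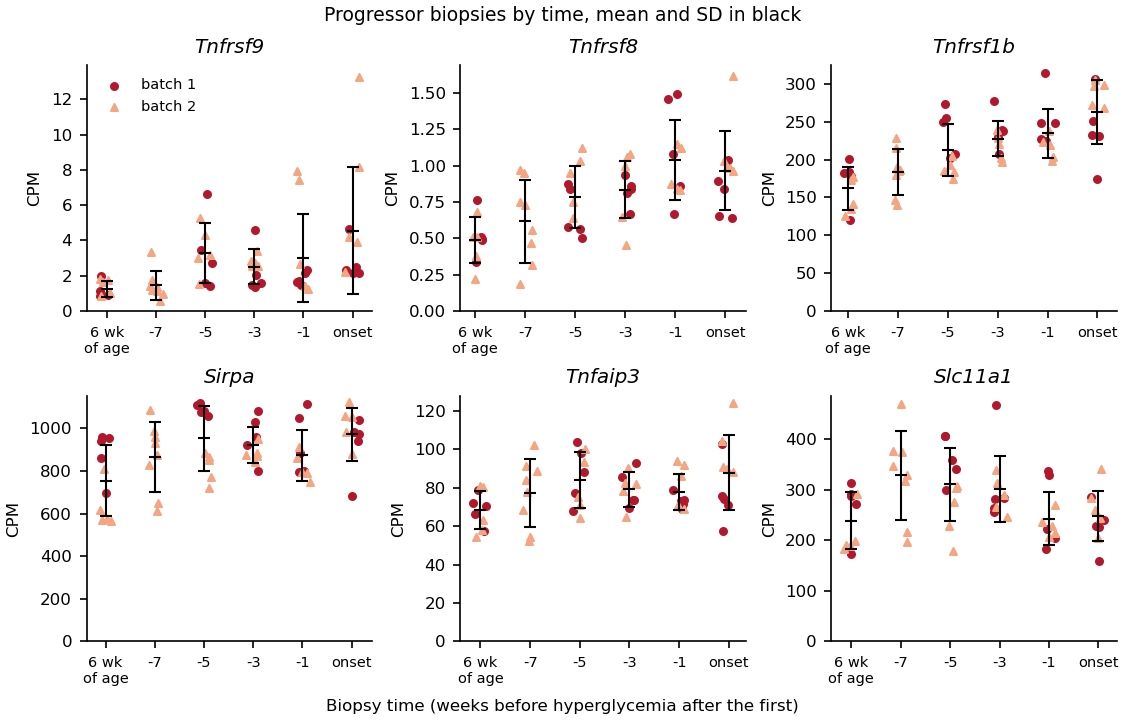
CPM (y axes) of the 6 candidates whose level changed over time in progressors, by biopsy time (x axes, 6 weeks of age and then weeks before hyperglycemia), with 1 point per biopsy, shape and shade for the batch, and black bars for mean and SD. Tnfrsf9, Tnfrsf8 and Tnfrsf1b are lowest at 6 weeks and highest at -1 or onset, whereas the mean of Slc11a1 over both batches is highest at -7 and near its 6-week value at -1 and onset.

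The groups were not shown to change differently. The change after 6 weeks in progressors minus that in nonprogressors was 0.41 ± 0.23 for Tnfrsf8 (edgeR adjusted p = 0.936) and 0.09 ± 0.117 for Tnfrsf1b (edgeR adjusted p = 0.984), and no candidate and no other gene of 21468 passed. The change in nonprogressors minus that in NOR was 0.43 ± 0.167 for Tnfrsf1b (unadjusted p = 0.0146, edgeR adjusted p = 0.757) and 1.28 ± 0.504 for Tnfrsf9 (unadjusted p = 0.0159, edgeR adjusted p = 0.757), and no gene of 20647 passed.

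The promoters of the receptor genes that rose together, and of Tnfaip3, are shown because these genes belong to the TNF and NF-κB pathways. Each sequence is the stretch of 250 bases before a start site, from RefSeq on GRCm38.p6, written 5′ to 3′ on the strand of the gene, with matches to the NF-κB consensus of either strand in capitals. The table had a promoter for 9 of the 10 candidates, and Sirpa was not listed.
Tnfrsf9, second of 2 listed starts, chr4:150927749-150927998, plus strand: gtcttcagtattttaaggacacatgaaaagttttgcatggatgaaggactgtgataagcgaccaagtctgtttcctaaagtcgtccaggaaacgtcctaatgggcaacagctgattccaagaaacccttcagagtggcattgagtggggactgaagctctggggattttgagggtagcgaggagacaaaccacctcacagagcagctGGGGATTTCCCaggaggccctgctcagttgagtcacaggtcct
Tnfrsf8, chr4:145315165-145315414, minus strand: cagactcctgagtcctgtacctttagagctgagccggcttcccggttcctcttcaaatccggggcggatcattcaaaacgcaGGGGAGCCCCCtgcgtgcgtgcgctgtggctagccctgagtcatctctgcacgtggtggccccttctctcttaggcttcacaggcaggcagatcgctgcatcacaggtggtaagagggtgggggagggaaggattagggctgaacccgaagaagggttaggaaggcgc
Tnfrsf1b, chr4:145246871-145247120, minus strand: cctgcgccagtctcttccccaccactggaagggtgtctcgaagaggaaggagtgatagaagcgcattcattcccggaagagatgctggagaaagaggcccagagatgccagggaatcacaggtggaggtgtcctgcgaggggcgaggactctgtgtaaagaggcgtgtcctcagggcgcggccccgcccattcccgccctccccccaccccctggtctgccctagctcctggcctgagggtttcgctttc
Tnfaip3, first of 2 listed starts, chr10:19015411-19015660, minus strand: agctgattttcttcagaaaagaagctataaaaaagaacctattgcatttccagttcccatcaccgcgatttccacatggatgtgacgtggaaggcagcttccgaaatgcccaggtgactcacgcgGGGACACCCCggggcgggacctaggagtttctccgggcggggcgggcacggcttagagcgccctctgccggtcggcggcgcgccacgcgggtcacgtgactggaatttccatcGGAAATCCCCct
The consensus occurs 1 time in the promoters of Tnfrsf9 (beginning 43 bases before the start) and of Tnfrsf8 (168 bases before), 2 times in that of Tnfaip3 (125 and 12 bases before) and not in that of Tnfrsf1b. B2m holds 1 match as well, 126 bases before its start, and the other 4 candidates in the table hold none. The other listed starts of Tnfrsf9 (chr4:150919905-150920154) and Tnfaip3 (chr10:19011964-19012213) hold none. Of all 32851 promoters of that length, counted 1 by 1, 7.25% hold a match.

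Another 8 motifs were searched in the same promoters on both strands, chosen with the values known, and a candidate was counted where any of its listed promoters held the motif, which favours Tnfrsf9, Tnfaip3 and Ptpn22 with 2 each over the share per promoter. AP-1 (TGACTCA or TGAGTCA) occurs in Tnfaip3, Tnfrsf8 and Tnfrsf9, against 4.46% of all promoters. The hexamer GAGGAA, the core of PU.1 sites, occurs in 6 candidates, among them Slc11a1, Cd101, Tnfrsf1b and Tnfrsf8, against 23.25% of all promoters. The core of interferon response elements, 2 copies of GAAA with 2 bases between them, occurs in B2m and Tnfrsf1b, against 2.98%, and the GAS element (TTCNNNGAA) in 4 candidates, against 7.02%. The ETS core (GGAAG) occurs in 7 candidates, against 64.07%, CCAAT in 3, against 33.85%, TATAAA in 2, against 12.37%, and the E-box CACGTG in 2, against 6.02%. A match describes the letters alone and is not evidence of binding, and the matches of different motifs can overlap.

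Genes of the pathways were also counted over time, where 19.6% of all genes were higher in progressors, 19.9% lower and 39.5% either, and those named here were chosen after their values were seen. In progressors, 5 of 22 genes of TNF receptor signalling were higher at the later times and 2 lower. Tnf, the cytokine that TNF receptor 2 binds, rose by 0.55 ± 0.142, and the deubiquitinase gene Otulin by 0.28 ± 0.061. Tnfrsf1a, the other TNF receptor, fell by 0.21 on the log2 scale (SE 0.044), in contrast to Tnfrsf1b, and Nfkb2 fell by 0.27 (SE 0.077). In nonprogressors 3 of the 22 rose, including Tnf (0.53 ± 0.196) and Otulin (0.30 ± 0.069), and none fell, against 9.88% higher and 14.2% lower among all genes. The median over this list was -0.047 in progressors and 0.023 in nonprogressors.

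Of 12 genes of lymphocyte receptor signalling, 10 rose in progressors, among them Zap70 (0.98 ± 0.213), Lck (0.83 ± 0.204) and Ubash3a (1.56 ± 0.315), and 2 rose in nonprogressors, Lat and Ubash3a. Ptpn22, the phosphatase that acts on Lck and Zap70, did not rise with them. Of 15 further candidate genes of NOD loci, 5 of the 13 tested rose in progressors, including Ctla4 (2.21 ± 0.347) and Icos (1.61 ± 0.272), and 2 fell, the interferon sensor gene Ifih1 (-0.51 ± 0.134) and the Fc receptor gene Fcgr1 (-0.69 ± 0.206), which fell in nonprogressors as well. Of 14 mTOR genes 3 rose and 2 fell in progressors, with Tsc1, an inhibitor of the pathway, higher by 0.41 ± 0.07 and Ddit4, another inhibitor, lower by a log2 fold change of -0.72 ± 0.18. Of 12 genes of MHC class I assembly 2 rose, H2-D1 (0.32 ± 0.09) and Nlrc5 (0.47 ± 0.138), and 2 fell. Of 9 genes of phagosomes and metal transport 3 rose in progressors, among them the oxidase subunit gene Cybb (0.53 ± 0.129) and Slc11a2 (0.29 ± 0.078), the paralogue of Slc11a1, and none fell. Of 7 genes of the SIRPA and CD47 axis Sirpb1c rose (0.59 ± 0.152) and Ptpn11, the phosphatase that binds SIRPA, had a log2 fold change of -0.13 ± 0.038. In NOR 0 genes of these lists passed over time, where 0.0357% of all genes did. The median log2 fold change of the lymphocyte receptor list was 0.46 in NOR, against 0.547 in progressors and 0.344 in nonprogressors.

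Markers of several cell types changed over the same times. Of all genes, 19.6% were higher and 19.9% lower in progressors, and 9.88% higher and 14.2% lower in nonprogressors. In progressors 5 of 8 T cell markers, 4 of 5 B cell markers, 1 of 8 macrophage markers (Cd14), 1 of 6 dendritic cell markers (Itgax, with a list median of -0.11), 1 of 3 tested neutrophil markers (Cxcr2) and 1 of 4 epidermis markers (Krt14) were higher, and all 5 fibroblast markers and 4 of 5 endothelial markers were lower. The summed fibroblast markers ran from 27500 to 53100 CPM at 6 weeks and from 4580 to 25300 CPM at onset. The T cell markers summed to 4.62 to 25.1 CPM at 6 weeks and 8.43 to 27.1 CPM at onset, and the macrophage markers to 4280 to 8440 and 4970 to 9230 CPM. In nonprogressors all 5 fibroblast markers (median log2 fold change -0.73), 2 of 5 endothelial, 3 of 4 epidermis and 2 of 6 dendritic cell markers were lower, and 2 of 5 B cell markers, 1 of 8 T cell markers (Cd5), Itgax and Cxcr2 were higher. The part of these shifts in the rise of Tnfrsf9, Tnfrsf8, Tnfrsf1b, Sirpa and Tnfaip3 in progressors and of Tnfrsf1b, Sirpa and Mtor in nonprogressors was not tested. In NOR no marker passed over time, where 0.0357% of all genes did. Median log2 fold changes there were 0.592 for T cell, 1.558 for B cell and -0.265 for fibroblast markers. The same medians in progressors were 0.88, 1.932 and -1.211.

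Some candidates varied together across samples. With the mean of strain and batch taken off, the Pearson correlation of log2 CPM over the 120 samples was 0.78 between Slc11a1 and Sirpa, 0.72 between Sirpa and Tnfrsf1b, 0.64 between Tnfrsf1b and Tnfaip3 and 0.60 between Tnfrsf1b and Tnfrsf8. Between Slc11a1 and Tnfrsf9 it was -0.08. These samples share mice, time points and library scaling, so the values are descriptions.

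The genes whose levels followed each candidate most closely were sought among 15912 genes with a mean of 1 CPM or more, by the lower of the correlations in batch 1 (74 samples) and batch 2 (46 samples). For Slc11a1 they were the lysosomal gene Pld3 (0.91 and 0.93) and Laptm5 (0.89 and 0.92), and for Sirpa the leukocyte myosin gene Myo1f (0.92 and 0.90) and Cyth4 (0.89 and 0.93). For Tnfrsf1b the closest was the proton channel gene Hvcn1 (0.86 and 0.89). Those of Tnfrsf9 were Runx3 (0.79 and 0.91), a transcription factor of cytotoxic lymphocytes, and Cytip (0.74 and 0.79). Those of Ptpn22 were Nfatc1 (0.90 and 0.82) and Dock5 (0.89 and 0.81), genes known from osteoclasts among other cells. Those of Tnfaip3 were the chemokine receptor gene Cxcr4 (0.84 and 0.86) and the cytokine gene Osm (0.76 and 0.82), and those of Tnfrsf8 were Acap1 (0.68 and 0.70) and Osm (0.64 and 0.68). Those of B2m were Arpc2 (0.82 and 0.83) and Cwc15 (0.81 and 0.80), those of Mtor were Atg2a (0.71 and 0.86) and Trappc9 (0.70 and 0.86), and those of Cd101 were Mirt1 (0.82 and 0.75) and Trbc1 (0.70 and 0.66), the last being a T cell receptor constant region gene. These are Pearson values. By rank (Spearman) some were lower, such as Tnfrsf8 with Osm (0.375 and 0.67) and Cd101 with Mirt1 (0.651 and 0.676). Others were higher, such as Tnfrsf9 with Cytip (0.75 and 0.82).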

How the data were processed

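Bulk RNA was sequenced from scaffold biopsies in 2 batches, from libraries depleted of ribosomal RNA. The authors deposited a table of RSEM expected counts per gene for each batch. The submitters' processing notes name cutadapt, FastQC, STAR, RSEM, MultiQC and GRCm38, with versions not given in the sources used here. Reads of both strains were aligned to 1 reference, and the effect of strain sequence differences on read assignment was not tested.

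The expected counts were used as deposited, with rounding only for DESeq2. Reporter transgene rows were left out, and genes with low counts were removed by filterByExpr. Tests used edgeR 4.0.16 (quasi-likelihood, TMM, Benjamini-Hochberg adjustment over all genes) in R 4.3.3. Strains were compared in batch 1 on counts summed per mouse, and comparisons within NOD carried batch as a term. The scripts were tested on simulated data. For the strain comparison (23387 genes) they recovered 48% of 1.5-fold and 80% of 2-fold changes, and for the NOR time comparison (19628 genes) 38% and 68%. Alternatives were RLE scaling, no filter, DESeq2 1.42.0, single batches, a mouse block and leaving out single mice. The block used limma 3.58.1 between strains and edgeR for strain by age and over time. Each mouse was left out in turn between strains, for strain by age and over time in NOR. Over time in nonprogressors this was done for mice 1 to 4, and not for progressors or between the NOD groups. The fits for each NOD group, each age (with and without the low 18-week NOR sample), each time (in both batches and in batch 2), the differences of changes and the batch difference were chosen after seeing the data.

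Apart from the unlinked day-labelled samples, same-numbered samples of NOR mice, of progressors or of nonprogressors came from the same mouse, as the sample titles give it. The correlation of their deviations from the group means had a median of -0.001 in NOR (42 pairs), -0.012 in progressors (140 pairs) and 0.03 in nonprogressors (46 pairs), against -0.007, 0 and -0.009 between mice. Over 239 pairs of samples of 1 group and batch, the lowest chi-square per degree of freedom was 11.01, so no library appeared 2 times within these. Pairs across groups or batches were not compared. Total counts were 4722396 to 56185434 per sample. Gene positions are those of GENCODE M21, which matched 99.38% of the genes. All candidates were named in every comparison. Of each gene list, up to 4 genes past the strain test were named, of the genes within 1 Mb of each candidate up to 3, by smallest p, and for each candidate the 2 most correlated genes, of which 1 is not reported here. The candidates and lists were chosen with earlier results of these data known.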

Additional observations from a re-analysis of the deposited data

Results flagged for a closer look

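Groups of 4 to 10 biopsies were checked, and the batch 1 mice of each strain with biopsies summed. A sample was picked out where its gap to the nearest other sample was a large share of the range of the group (Dixon's test at the 95% level). Of 170 groups checked, 19 had such a sample, where chance gives about 1 in 20.

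The highest Cd101 value, 6.954 CPM in the 18-week biopsy of NOR mouse 4, stood against 1.042 CPM in the next. Other Cd101 values apart from their group were 1.472 CPM in nonprogressor mouse 6 at 14 weeks and 1.757 CPM in progressor mouse 10 at -3 weeks.

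Tnfrsf9 was high in nonprogressor mouse 5 at 14 weeks (11.49 CPM), progressor mouse 9 at -7 weeks (3.318 CPM), NOR mouse 2 at 14 weeks (4.077 CPM) and NOR mouse 4 at 6 weeks (6.501 CPM). Tnfrsf8 was low in nonprogressor mouse 4 at 10 weeks (0.337 CPM) and high in progressor mouse 8 at onset (1.619 CPM).

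Progressor mouse 1 was the highest of its group for Tnfrsf1b at -1 week (315 CPM) and at -3 weeks (278 CPM) and for Slc11a1 at -3 weeks (468.3 CPM). Slc11a1 was also high in nonprogressor mouse 10 at 14 weeks (405.7 CPM).

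Ptpn22 was high in nonprogressor mouse 3 at 18 weeks (12.02 CPM), progressor mouse 8 at -5 weeks (26.27 CPM) and NOR mouse 2 at 6 weeks (15.96 CPM). Mtor was high in progressor mouse 5 at 6 weeks (141.6 CPM), B2m in nonprogressor mouse 1 at 18 weeks (796.1 CPM) and Sirpa in NOR mouse 4 at 22 weeks (1545 CPM).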

How the results depend on the processing

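Of 800 values of the candidates recomputed under alternatives, 738 kept their direction and side of the threshold. The 5 strain calls held without each of the 14 mice in turn, with 1433 to 2081 genes called. For nonprogressors against NOR by biopsy, with age as a factor, 4 candidates and 1677 of 19850 genes were called. Cd101 (-0.759) no longer passed there. With the 6-week samples alone 2 candidates (Tnfrsf1b and Sirpa) and 403 genes were called, Tnfrsf8 (-0.907) and B2m (-0.425) no longer passed, Ptpn22 was 0.3 and Cd101 0.035. Ptpn22 ranged from -0.097 to 0.06 with 1 mouse left out.

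For strain by age, genes called were 188 without the filter, 1073 with DESeq2 (1 candidate), 498 without the low 18-week NOR sample, and 0 to 372 with 1 mouse left out (0 to 1 candidates, Tnfrsf9 without NOR mouse 2, and 0 genes without nonprogressor mouse 4).

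Progressors against nonprogressors turned sign, with no call, at 6 weeks in batch 1 for Tnfrsf8 (0.164), B2m (-0.202), Cd101 (-0.415) and Tnfaip3 (-0.045), in batch 2 for Mtor (-0.051) and Sirpa (-0.096), and without the filter for Cd101 (-0.006). After 6 weeks they did so in batch 1 for Slc11a1 (0.091), Tnfrsf9 (-0.396), B2m (-0.005), Cd101 (0.15) and Tnfaip3 (-0.043), in batch 2 for Mtor (-0.004) and Ptpn22 (0.025), and without the filter for Ptpn22 (0.005). Genes called after 6 weeks were 3 with RLE, 131 with DESeq2 and 4 in batch 2.

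Over time, batch 1 alone gave 5317 genes in progressors (Mtor -0.047, B2m 0.098), 2712 in nonprogressors (Cd101 -0.387) and, for any difference between times, 3 candidates (Tnfrsf8, Tnfrsf1b and B2m) and 3675 genes. Batch 2 gave Ptpn22 0.365. In nonprogressors 1 to 4 candidates and 2786 to 4845 genes were called with 1 of mice 1 to 4 left out, and 5 candidates with the day-labelled samples added. In NOR 12 genes were called without the filter, 47 with DESeq2, 12 without the low sample and 0 to 54 with 1 mouse left out (54 without mouse 4), where Slc11a1 ranged from -0.059 to 0.078, Tnfrsf1b from -0.012 to 0.204 and Mtor from -0.019 to 0.078. The causes were not tested.

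With the mouse as a replicate block, 6 candidates were called between strains, 0 for strain by age (129 genes), 5 over time in progressors, 3 in nonprogressors, 0 in NOR (2 genes) and 4 for any difference between times. Apart from Mtor between strains and Slc11a1 between times, the block changed no call of a candidate. Cd101 and Tnfrsf8 rest on few counts per sample, which limits the precision of their values.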
